A study of Mus musculus with 6 samples.

Results

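The 10 genes followed here mark lipid-associated macrophages, and were measured in mouse liver after a normal or a high-fat diet: Clec7a, Trem2, Itgax, Spp1, Lgals3, Mmp12, Gpnmb, Cd68, Cd9 and Cd63. A gene was measured where a probe set, the group of short probes on the array that reads 1 transcript, carried its symbol and no other in the platform annotation. This held for 8 of the 10 genes, through 10 of 34945 such probe sets. All 8 were among the 14071 genes tested, and the probe set used for each lay above the filter on low levels in all 6 arrays. Spp1 and Cd63 have no such probe set here and are named only.

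The livers came from male mice of the inbred strain C57BL/6. From 8 weeks of age they received a normal diet, whose fat content is not given in the sources used here, or a high-fat diet in which fat supplied 60% of the energy, in both cases for 12 weeks. No genetic change or further agent is named for either group. Each diet had 6 mice, and RNA was combined from 2 mice. The labels are taken here to mean 3 separate pools per diet, each on 1 Affymetrix whole-genome mouse array, so n = 3 arrays per diet and the spread between single mice is not seen.

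Lipid-associated macrophages gather around dying or fat-laden cells in obese adipose tissue and in fatty liver, where they take up lipid and break it down in lysosomes. They were named for a programme of surface receptors, lysosomal proteins and secreted factors that is centred on the lipid receptor TREM2, which signals through the adaptor DAP12 (gene Tyrobp) and the kinase Syk. The resident macrophages of the liver, Kupffer cells, carry other markers such as Clec4f and Timd4, and monocytes recruited from blood can take on the lipid-associated programme.

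The defining markers of hepatocytes were present: over 10 of them the mean log2 level was 12.01 to 12.21 in every array. The mean of the 8 measured genes ran from 5.30 to 5.77 in the normal diet arrays and from 6.81 to 6.86 in the high-fat arrays. A limma adjusted p below 0.05 is what "called", "rose" and "fell" mean here, and by it 826 of all genes tested rose and 244 fell. After quantile normalization of the deposited values these counts were 596 and 301.

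Of the 8 measured genes 6 rose under the high-fat diet, 0 fell and 2 were not called, at a median difference of 1.22 on the log2 scale against 0.0033 over all genes. Higher calls made up 5.87% of all genes tested and lower calls 1.73%. Clec7a, Lgals3 and Mmp12 rose more than 4-fold, Cd68 and Gpnmb more than 2-fold and Itgax 1.64-fold. A called rise of at least 2-fold, found in these 5, was found in 1.66% of all genes. Counted by single probe set, 6 of the 9 that passed the filter rose, against 4.61% of all probe sets. Cd9 was 2.11-fold higher without passing, and Trem2, from which the programme takes its centre, was not higher. In 7 of the 8 genes every high-fat array lay above every normal diet array, which held for 21.1% of all genes. These are whole-liver values, in which more macrophages, more RNA per macrophage and RNA from other liver cells cannot be told apart.

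**Figure D1:**
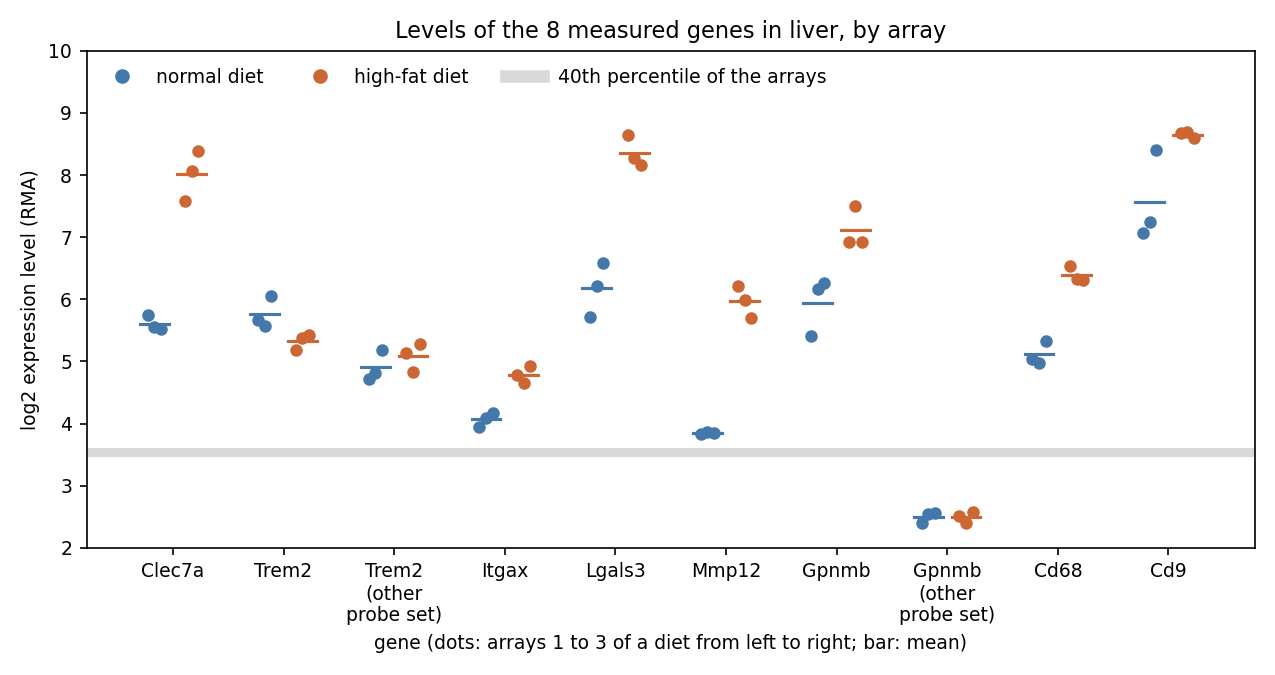
Log2 expression level (RMA, vertical axis) of every probe set of the 8 measured genes, with a dot for each array, a bar at the mean of each diet (n = 3) and a grey band at the 40th percentile of the arrays. The high-fat dots lie above the normal diet dots for Clec7a, Itgax, Lgals3, Mmp12, Cd68, Cd9 and the upper Gpnmb probe set, below them for the Trem2 probe set used for the gene, and among them for the other Trem2 and Gpnmb probe sets.

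Receptors come first. Clec7a encodes dectin-1, a C-type lectin of macrophages and dendritic cells that binds beta-glucans of fungal cell walls and signals through Syk. Its log2 level was 5.75, 5.55 and 5.53 in normal diet 1, 2 and 3 and 7.59, 8.07 and 8.39 in high-fat 1, 2 and 3. The groups were well separated, and the high-fat arrays spread more widely (SD 0.40 against 0.12, n = 3). The difference of 2.41 ± 0.20 (SE) on the log2 scale is a 5.30-fold rise (limma adjusted p = 0.00268, 95% interval 1.94 to 2.87) and the 15th largest increase among the 14071 genes. It lay between 2.22 and 2.62 whichever array was left out, and the gene was called each time.

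Trem2 encodes the receptor for lipids and lipoproteins that is required for the programme in mice. The probe set used for the gene read 5.67, 5.57 and 6.05 in the normal diet arrays and 5.18, 5.38 and 5.43 in the high-fat arrays. Every high-fat array thus lay below every normal diet array, as in 14.7% of all genes. The difference was -0.43 ± 0.15, with a 95% interval of -0.78 to -0.08, and was not called (limma adjusted p = 0.117). The other probe set read 4.72, 4.82 and 5.18 under normal diet and 5.13, 4.82 and 5.28 under high-fat diet, with overlapping groups and a difference of 0.17 ± 0.17 (limma adjusted p = 0.546 over all probe sets). The probe sets of Trem2 therefore differed in direction, and neither gave a rise that passed. Of the other genes of the family, Treml1 and Treml2 differed by -0.02 and -0.12 without passing and Trem1 and Trem3 lay below the level filter. Treml4 was 0.64 higher, with an SE of 0.49, and was not called. High-fat 2 stood apart in Treml4, at 3.36 against 5.20 and 5.30, and without it the difference was 1.27 and was called (limma adjusted p = 0.0390).

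Itgax encodes integrin alpha X, or CD11c, a surface protein of dendritic cells and of macrophages in obese tissue. Its level was close to the 40th percentile, at 3.95, 4.09 and 4.17 in the normal diet arrays and 4.79, 4.65 and 4.93 in the high-fat arrays. The groups did not overlap, and the gene rose by 0.72 ± 0.12, or 1.64-fold (limma adjusted p = 0.0146). Its call was lost when high-fat 1 (0.72, adjusted p = 0.0659) or high-fat 3 (0.65, adjusted p = 0.0703) was left out, and over all alternatives its adjusted p ran from 0.00918 to 0.0703. RMA flattens differences this close to background, so the fold may understate the change. Itgb2, which encodes the beta chain that pairs with CD11c, rose 1.82-fold (0.87 ± 0.16), but was not called when any 1 high-fat array was left out. Itgal, another of its alpha chains, was 1.66-fold higher, which did not pass (adjusted p = 0.0519). With normal diet 2 left out it did (0.85, adjusted p = 0.0494). Itgam, the alpha chain of CD11b, lay below the level filter.

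The secreted members were Lgals3 and Mmp12. Lgals3 encodes galectin-3, a lectin that binds galactose-containing sugars and is released by activated macrophages. Its level was 5.72, 6.21 and 6.59 in the normal diet arrays and 8.64, 8.27 and 8.17 in the high-fat arrays. The lowest high-fat array was well above the highest normal diet array, and the difference of 2.19 ± 0.23 is a 4.55-fold rise (limma adjusted p = 0.00470). Of 9 tested galectin genes, counting Lgals3, 2 rose and 0 fell. The other was Lgals3bp, a secreted ligand of galectin-3 that is grouped with them here (1.81-fold) and was not called when any 1 high-fat array was left out. Lgals1, which encodes galectin-1, read 8.45, 10.25 and 7.76 against 10.97, 11.00 and 11.06. Its normal diet arrays scattered widely, and the difference of 2.19 ± 0.55 did not pass (adjusted p = 0.0563). Without normal diet 2 it was 2.90 and passed (adjusted p = 0.00351).

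Mmp12 encodes macrophage elastase, a secreted protease that degrades elastin. Its level was 3.83, 3.86 and 3.85 in the normal diet arrays, only a little above the 40th percentile of those arrays (3.53 to 3.59), and 6.22, 5.99 and 5.69 in the high-fat arrays. The normal diet arrays were nearly equal, and the gene stood clear of them in every high-fat array. The rise was 2.12 ± 0.14, or 4.35-fold (limma adjusted p = 0.00154), with the seventh smallest p of all genes. In the list of related proteases and their inhibitors 2 of 8 tested genes rose, counting Mmp12. The other was Timp3, an inhibitor of metalloproteinases bound to the matrix (1.53-fold). Timp1, Timp2, Mmp19 and Mmp2 were 0.67, 0.44, 0.53 and 0.31 higher, and Mmp9 and Mmp14 differed by -0.19 and -0.08, all without passing. Mmp3, Mmp8 and Mmp13 lay below the level filter. When normal diet 1 or any high-fat array was left out the count was 1, and Mmp12 kept its call each time. It was 1 as well after quantile normalization.

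Lysosomal and membrane members were Cd68, Gpnmb and Cd9. Cd68 encodes macrosialin, a glycoprotein of endosomes and lysosomes that is widely used as a macrophage marker. Its level was 5.04, 4.98 and 5.33 in the normal diet arrays and 6.54, 6.33 and 6.31 in the high-fat arrays. Both groups were tight, and the difference of 1.28 ± 0.13 is a 2.42-fold rise (limma adjusted p = 0.00407), called whichever array was left out. Its relatives Lamp1 and Lamp2, abundant lysosomal membrane proteins of most cells, were at 11.48 and 11.77 under normal diet and differed by 0.22 and 0.21 without passing.

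Gpnmb encodes a transmembrane glycoprotein of lysosomes and melanosomes that marks macrophages loaded with lipid. The probe set used for the gene read 5.41, 6.16 and 6.26 in the normal diet arrays and 6.93, 7.50 and 6.92 in the high-fat arrays. The groups did not overlap, and the difference of 1.17 ± 0.26 is a 2.25-fold rise (limma adjusted p = 0.0381). Its call ended when normal diet 2 was left out (1.28, adjusted p = 0.0562) and likewise for high-fat 1, 2 or 3 (1.27, 0.98 and 1.27, adjusted p = 0.0988, 0.128 and 0.106). It also ended after quantile normalization (1.05, adjusted p = 0.0597) and where both of its probe sets were averaged (0.58, adjusted p = 0.0628). The other probe set was at 2.40 to 2.58 in all 6 arrays, below the level filter, so the mean of both is pulled towards 0.

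Cd9 encodes a tetraspanin, a membrane organiser found on many cell types. Its level was 7.07, 7.25 and 8.40 in the normal diet arrays and 8.67, 8.69 and 8.60 in the high-fat arrays. Normal diet 3 was close to the high-fat arrays and the other normal diet arrays were far below, giving a difference of 1.08 ± 0.32 that did not pass (limma adjusted p = 0.0826, 95% interval 0.34 to 1.82). Without normal diet 3 the difference was 1.49 and was called (adjusted p = 0.000908), as it was with array weights (1.30, adjusted p = 0.00878), and over all alternatives the adjusted p ran from 0.000908 to 0.214. Of 21 tested tetraspanin genes 3 rose, Cd81 (1.45-fold), Cd151 (1.37-fold) and Tspan14 (1.68-fold), and Tspan4 fell by 0.97. The 3 became 1 with normal diet 1 left out, 5 with normal diet 3 left out and 0 with any high-fat array left out.

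**Figure D2:**
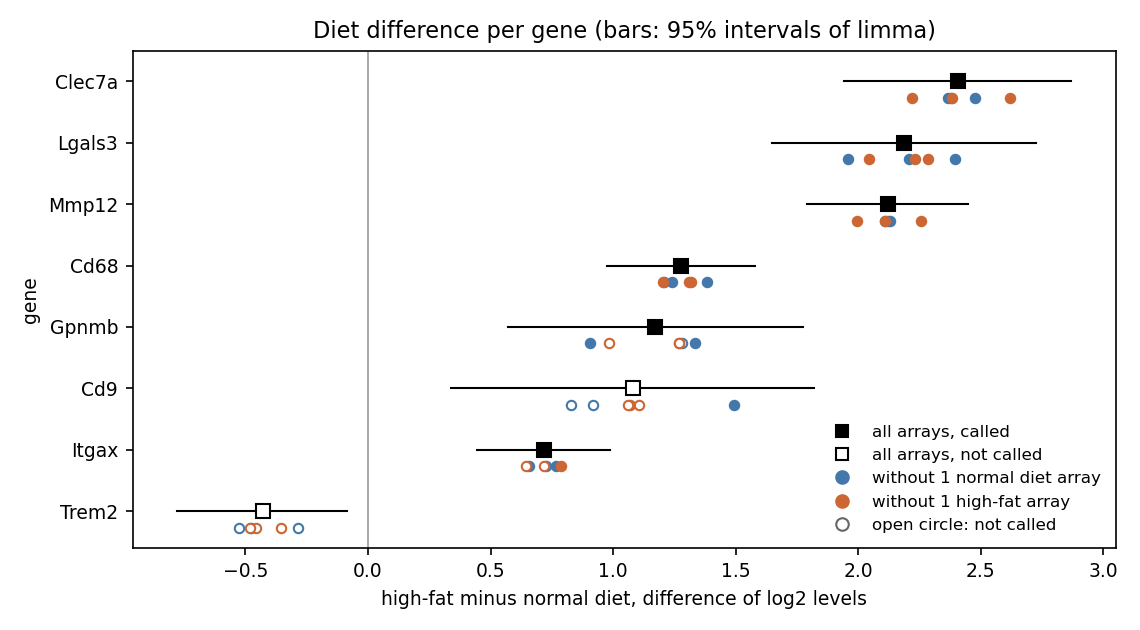
Difference of log2 levels, high-fat minus normal diet, for each of the 8 measured genes, with squares for all arrays, bars for the 95% interval and circles for the value with 1 array left out. Clec7a, Lgals3, Mmp12 and Cd68 were called in each case, and the Cd9 circle at 1.49 is the value without normal diet 3.

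Promoter windows of all 10 genes were taken from RefSeq on the build GRCm38.p6, reaching from 250 bases before the transcription start to 50 bases after it. They are shown for the 8 measured genes, so that the 6 that rose can be set beside Cd9 and Trem2, which were not called. Capitals mark matches, on either strand, to GAGGAA, the core bound by the macrophage factor PU.1, to TGANTCA, the site of AP-1, and to CACGTG or TCATGTG, sites of the lysosomal regulators of the MiT/TFE family. Mmp12 has 2 annotated starts and both are shown, while the starts of Clec7a lie so close together that only the first is.
Clec7a (chr6:129472730-129473029, minus strand): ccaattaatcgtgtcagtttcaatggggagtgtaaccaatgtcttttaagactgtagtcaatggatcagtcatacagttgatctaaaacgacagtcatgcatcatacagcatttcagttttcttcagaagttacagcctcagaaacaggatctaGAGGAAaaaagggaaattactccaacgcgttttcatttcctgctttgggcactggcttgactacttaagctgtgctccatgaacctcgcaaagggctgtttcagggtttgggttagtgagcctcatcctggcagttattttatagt
Lgals3 (chr14:47373610-47373909, plus strand): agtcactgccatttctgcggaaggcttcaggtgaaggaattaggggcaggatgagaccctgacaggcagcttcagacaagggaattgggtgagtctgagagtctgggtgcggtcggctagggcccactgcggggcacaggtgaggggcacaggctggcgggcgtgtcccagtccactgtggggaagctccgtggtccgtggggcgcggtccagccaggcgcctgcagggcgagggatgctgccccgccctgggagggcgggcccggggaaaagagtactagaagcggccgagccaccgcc
Mmp12 first start (chr9:7344147-7344446, plus strand): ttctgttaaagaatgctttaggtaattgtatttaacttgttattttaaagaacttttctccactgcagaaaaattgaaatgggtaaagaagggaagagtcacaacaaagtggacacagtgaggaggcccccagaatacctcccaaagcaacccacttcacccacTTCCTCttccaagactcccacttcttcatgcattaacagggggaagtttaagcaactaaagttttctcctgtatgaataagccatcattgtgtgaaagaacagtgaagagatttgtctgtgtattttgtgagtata
Mmp12 second start (chr9:7347124-7347423, plus strand): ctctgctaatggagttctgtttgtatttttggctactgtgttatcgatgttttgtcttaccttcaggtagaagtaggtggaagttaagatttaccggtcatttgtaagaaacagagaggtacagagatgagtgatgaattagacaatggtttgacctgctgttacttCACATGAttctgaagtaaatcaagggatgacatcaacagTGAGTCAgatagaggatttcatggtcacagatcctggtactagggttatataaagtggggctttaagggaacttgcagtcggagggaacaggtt
Cd68 (chr11:69666121-69666420, minus strand): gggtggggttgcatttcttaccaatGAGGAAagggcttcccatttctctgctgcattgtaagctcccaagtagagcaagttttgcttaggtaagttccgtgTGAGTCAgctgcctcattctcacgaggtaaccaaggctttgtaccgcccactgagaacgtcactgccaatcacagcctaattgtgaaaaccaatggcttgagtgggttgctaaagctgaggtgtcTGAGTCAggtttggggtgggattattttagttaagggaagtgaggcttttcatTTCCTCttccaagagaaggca
Gpnmb (chr6:49036268-49036567, plus strand): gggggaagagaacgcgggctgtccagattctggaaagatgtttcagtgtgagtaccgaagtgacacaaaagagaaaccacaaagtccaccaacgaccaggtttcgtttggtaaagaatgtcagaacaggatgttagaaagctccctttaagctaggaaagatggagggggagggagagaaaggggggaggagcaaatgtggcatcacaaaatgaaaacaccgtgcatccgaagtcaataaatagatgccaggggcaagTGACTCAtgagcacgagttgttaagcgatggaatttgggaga
Itgax (chr7:128129300-128129599, plus strand): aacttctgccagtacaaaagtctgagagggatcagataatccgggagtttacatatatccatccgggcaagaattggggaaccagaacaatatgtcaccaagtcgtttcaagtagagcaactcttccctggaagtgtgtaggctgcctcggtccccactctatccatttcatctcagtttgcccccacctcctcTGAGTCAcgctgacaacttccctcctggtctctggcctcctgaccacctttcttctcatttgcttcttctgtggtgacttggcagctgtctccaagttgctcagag
Cd9 (chr6:125494711-125495010, minus strand): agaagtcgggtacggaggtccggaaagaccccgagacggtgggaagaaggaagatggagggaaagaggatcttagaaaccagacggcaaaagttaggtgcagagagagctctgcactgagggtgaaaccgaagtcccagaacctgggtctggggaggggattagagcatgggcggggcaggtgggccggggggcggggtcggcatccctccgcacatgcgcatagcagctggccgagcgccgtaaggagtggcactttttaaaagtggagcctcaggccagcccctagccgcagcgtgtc
Trem2 (chr17:48346151-48346450, plus strand): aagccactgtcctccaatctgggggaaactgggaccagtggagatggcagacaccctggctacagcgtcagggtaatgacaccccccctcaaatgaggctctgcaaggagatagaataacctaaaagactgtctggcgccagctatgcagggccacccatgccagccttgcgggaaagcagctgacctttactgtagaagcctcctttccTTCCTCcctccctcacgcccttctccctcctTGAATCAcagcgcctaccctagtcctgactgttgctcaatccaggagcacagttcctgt
GAGGAA was found in the first window of 6 of the 10 genes, Clec7a, Mmp12, Cd68, Trem2, Spp1 and Cd63, and in 28.3% of all 32851 windows in the table. TGANTCA was found in the first window of 4, Cd68, Gpnmb, Itgax and Trem2, and in the second window of Mmp12, against 7.81% of all windows. In Cd68 it occurred at 149 and 24 bases before the start, and in Itgax at 56 bases before it. CACGTG was in none of the first windows (7.15% of all windows) and TCATGTG in the second window of Mmp12 alone (3.77%). TATAAA, the core of the TATA box, which is left in lower case, was in the first window of Clec7a and Spp1 and in the second of Mmp12 (13.6% of all windows). It began 43 bases after the start in Clec7a, on the opposite strand, 211 before it in Spp1 and 5 after it in Mmp12. The windows of Lgals3 and Cd9 held no match to any of these, and that of Trem2 held both GAGGAA and TGANTCA. The shares over all windows count every annotated start, unlike the counts of first windows. Over the first windows of 11298 tested genes the shares were 26.7% for GAGGAA, 5.59% for TGANTCA and 9.71% for CACGTG. For TCATGTG and TATAAA they were 2.37% and 8.36%. Each motif was searched on both strands on its own, and no match of one overlapped a match of another in these windows. A match is a run of letters and not a measured binding site.

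Further genes linked to the programme are given by function. Of 8 tested genes of DAP12 and Syk signalling 1 rose, the adaptor gene Tyrobp (1.90-fold, 0.93 ± 0.17, limma adjusted p = 0.0242), and 0 fell. The phosphatase genes Inpp5d and Ptpn6 were 1.24-fold and 1.21-fold higher without passing. Tyrobp lost its call when normal diet 2 or any high-fat array was left out, and after quantile normalization.

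Of 16 lysosomal genes linked to the programme 7 rose and 0 fell, with a median difference of 0.39. They included Ctss and Ctsd, which encode cathepsins S and D (1.93-fold and 1.69-fold), Cstb, which encodes the cathepsin inhibitor cystatin B (1.74-fold), and Pld3, a lysosomal nuclease gene (1.55-fold). The 7 became 4 without normal diet 2 and 1, 1 and 2 without high-fat 1, 2 and 3. Among the factors that drive lysosomal genes, Mitf and Tfec were 1.47-fold and 1.48-fold higher and Tfeb and Tfe3 differed by 0.01 and -0.07. None of these 4 was called by limma, and 2 had an unadjusted p below 0.05. Mitf passed without normal diet 2 (0.69, adjusted p = 0.0366).

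In lipid handling 2 of 15 tested genes rose and 0 fell. Both act in the lysosome: Lipa encodes the acid lipase that splits cholesteryl esters and triglycerides (2.18-fold, 1.12 ± 0.14), and Npc2 encodes a carrier that hands cholesterol on for export (1.77-fold). Lpl, the lipoprotein lipase gene, read 6.18, 5.41 and 7.74 against 8.09, 8.28 and 8.46 and did not pass (3.57-fold higher, adjusted p = 0.0752). With normal diet 3 left out its difference was 2.48 and passed (adjusted p = 0.00143). Cd36, a fatty acid transporter and scavenger receptor gene, read 7.82, 8.65 and 5.74 against 9.46, 9.67 and 9.60. It was 4.51-fold higher without overlap and did not pass (adjusted p = 0.0832). Its normal diet arrays scattered widely, and it passed with normal diet 2 left out (2.80, adjusted p = 0.0352) or normal diet 3 (1.34, adjusted p = 0.0120). Apoe was at 13.85 under normal diet and 14.11 under high-fat diet, a 1.20-fold difference that was not called. Abca1, also in this list, was 1.86-fold lower without overlap and did not pass (-0.90, adjusted p = 0.0870). It was called lower with normal diet 1 left out (-1.22, adjusted p = 0.0123). The count of genes that rose was 6 without normal diet 3 and 1 without high-fat 1 or 2.

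A further 16 tested genes of the macrophage state held 6 that rose and 1 that fell. Among them were Cd44, a receptor for hyaluronan and for osteopontin, the product of Spp1 (2.32-fold, 1.21 ± 0.12), Axl, a receptor for apoptotic cells (2.33-fold), Anxa5, the annexin A5 gene (3.59-fold), and the lectin gene Clec4n (2.14-fold). The gene that fell, named after its values were seen, was Igf1, a hepatocyte product in liver (-0.66), which lost its call when normal diet 2 or any high-fat array was left out. Of 9 tested genes of osteopontin receptors 2 rose, Cd44 and the integrin gene Itgb5 (1.66-fold), and only Cd44 kept its call where high-fat 2 or high-fat 3 was left out. Itga8, another integrin gene, was 1.95-fold higher and did not pass (limma adjusted p = 0.0574). Without high-fat 1 it was called (1.22, limma adjusted p = 0.0422), which made the count 3. The lowest difference in this list was -0.13.

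The lectin genes related to Clec7a moved with it in part: 5 of 8 tested members rose and 0 fell, counting Clec7a. Clec4n, which encodes dectin-2, went from 4.63 to 5.73 on average, Clec4a3 rose 2.17-fold and Clec4a2 1.86-fold. Clec1b, named after its values were seen, rose 1.64-fold. Clec2d was lower by more than any other (-0.98 ± 0.36, adjusted p = 0.135), Clec4d and Clec1a differed by -0.14 and -0.23, all without passing, and Clec4e, which encodes Mincle, lay below the level filter. The count was 3 where high-fat 2 or high-fat 3 was left out.

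Of 11 tested markers of macrophages in general 7 were called higher and 0 lower, with a median difference of 0.74, and their mean level was 6.76 to 6.92 in the normal diet arrays and 7.34 to 7.49 in the high-fat arrays. Csf1r, the receptor gene that macrophages depend on, rose 1.74-fold, the surface receptor gene Adgre1 1.56-fold, Mpeg1 1.81-fold, Lyz2 1.80-fold and Cybb, a subunit gene of the phagocyte oxidase, 3.13-fold. Cd14 was 1.70-fold lower without passing (5.43, 7.05 and 7.61 against 6.11, 5.85 and 5.82), and was called lower without normal diet 1 (-1.40, adjusted p = 0.0154). Laptm5, a lysosomal membrane protein gene of blood cells, was lower in every high-fat array (-0.25), and Fcgr1 and Mertk differed by 0.05 and 0.39, all without passing. Itgam lay below the level filter. The differences of Clec7a, Lgals3, Mmp12, Cd68 and Gpnmb exceeded the median of these markers, that of Itgax did not, and none of these gaps was tested. The part of the general markers in the members' differences was not tested either. The 7 became 1 where high-fat 2 or high-fat 3 was left out.

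Kupffer cell markers were divided. Of 11 tested 4 rose and 0 fell: Vsig4, a complement receptor gene (1.63-fold), Cd5l (1.75-fold) and the complement genes C1qb and C1qc (1.63-fold and 1.59-fold). Clec4f, Timd4 and Marco, which are more specific to resident Kupffer cells or their subsets, differed by 0.07 ± 0.19, -0.15 ± 0.17 and -0.06 ± 0.47 and were not called. The mean of the list was 7.52 to 7.62 under normal diet and 7.86 to 8.01 under high-fat diet. The iron exporter gene Slc40a1 was 2.14-fold higher and Cd163, a haemoglobin scavenger receptor gene, differed by -0.63, both without passing. With normal diet 1 left out Slc40a1 passed (1.41, adjusted p = 0.0148). The 4 became 0 when any 1 high-fat array was left out and 2 after quantile normalization.

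Markers of other blood-derived cells are given by cell type. Of 7 tested monocyte markers limma called 0 higher and 1 lower, Fn1, which hepatocytes also make in quantity (-0.42), with 0 higher and 2 lower at an unadjusted p below 0.05. Fn1 lost its call when normal diet 2 or 3 or any high-fat array was left out. Ccr2, the chemokine receptor of recruited monocytes, differed by -0.38 ± 0.12 without passing and was called lower with normal diet 2 left out (-0.50, adjusted p = 0.0489). The mean of the monocyte list was 5.88 to 6.11 under normal diet and 5.85 to 6.00 under high-fat diet. Differences in the monocyte list ran from -0.42 to 0.44, with a median of -0.05. Of 8 dendritic cell markers 1 rose, Cd83 (1.52-fold), whose call was lost when normal diet 1 or 2 or high-fat 2 or 3 was left out, while Flt3 and Cd209a differed by -0.11 and -0.18 without passing. Camp, an antimicrobial peptide gene of neutrophils, was 0.35 higher without overlap and did not pass (adjusted p = 0.0674). For neutrophils (7 tested), T and NK cells (6) and B cells (5) limma called 0 markers in either direction. At an unadjusted p below 0.05 there were 2, 0 and 0. The 2 of neutrophils were 1 higher and 1 lower, and differences in that list ran from -0.59 to 0.35, with a median of -0.14. Bile duct cells, a known source of Spp1 in liver, had 0 calls among 7 tested markers and 1 at an unadjusted p below 0.05. Epcam was 1.33-fold lower (adjusted p = 0.0515) and Krt19 differed by 0.02.

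Markers of stellate cells, the liver's fibroblast-like cells, moved with the members in part. Of 11 tested 3 rose and 0 fell, Lrat (2.69-fold), Dcn (1.55-fold) and Col3a1 (4.92-fold), and the mean of the list was 6.25 to 6.45 under normal diet and 6.73 to 7.20 under high-fat diet. Of 10 endothelial markers 1 rose, Lyve1 (2.56-fold), with means of 6.23 to 6.56 and 6.76 to 6.86. The part of these cells in the members' differences was not tested. Leaving out normal diet 1, normal diet 2 or high-fat 1 gave stellate counts of 1, 2 and 1, and leaving out high-fat 2 or 3 gave 0. The endothelial count was 2 with normal diet 1 or 2 left out and 0 with any high-fat array left out. Of 10 hepatocyte markers 1 fell, the regulator gene Hnf4a (-0.69), and 0 rose. Hnf4a was not called when any 1 high-fat array was left out. Of the adipocyte markers Adipoq and Lep lay below the level filter and the 2 tested were not called.

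**Figure D3:**
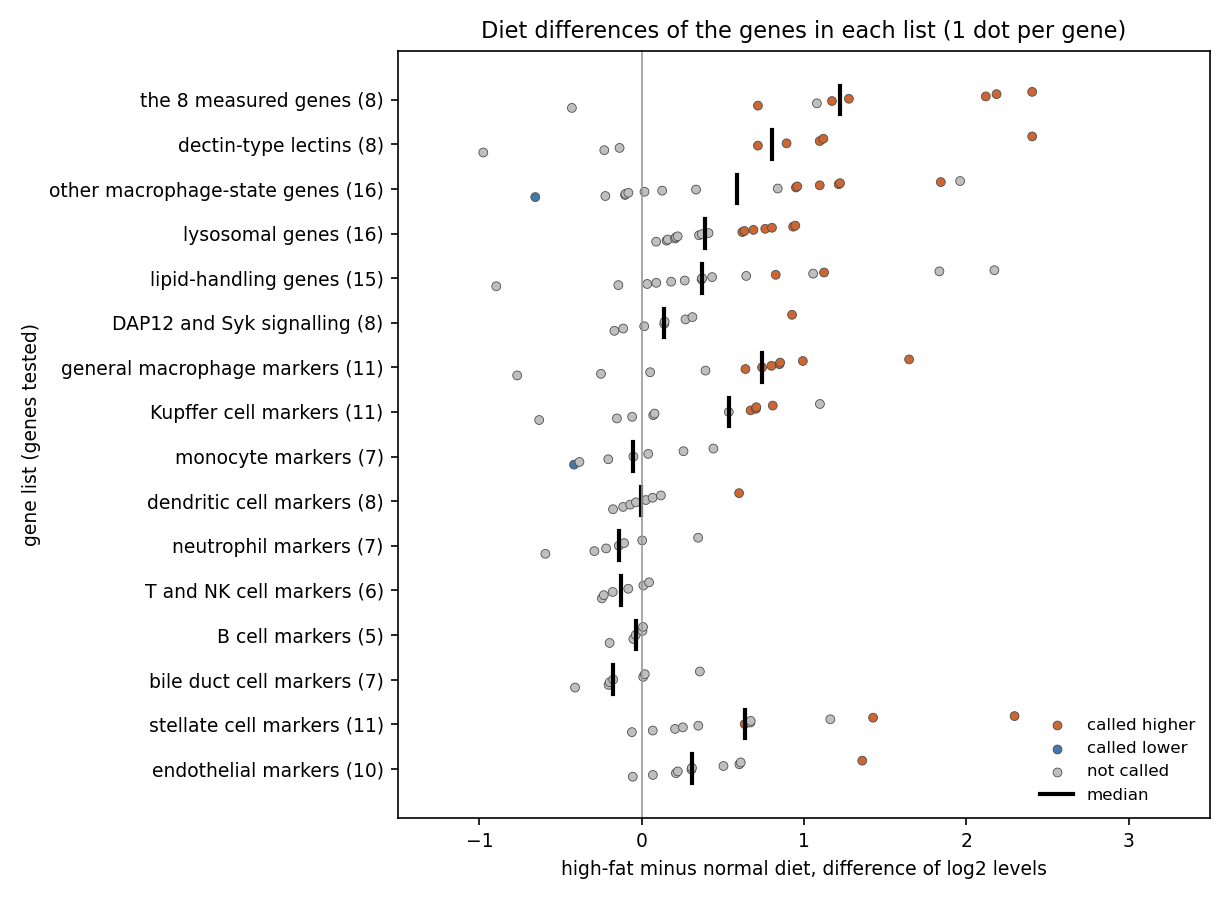
Difference of log2 levels, high-fat minus normal diet, of each tested gene in 16 lists, coloured by call, with a black bar at the median of the list. The medians lie at 1.22 for the measured members, 0.74 for general macrophage markers and 0.54 for Kupffer cell markers, and at -0.05 and -0.14 for monocyte and neutrophil markers.

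**Figure D4:**
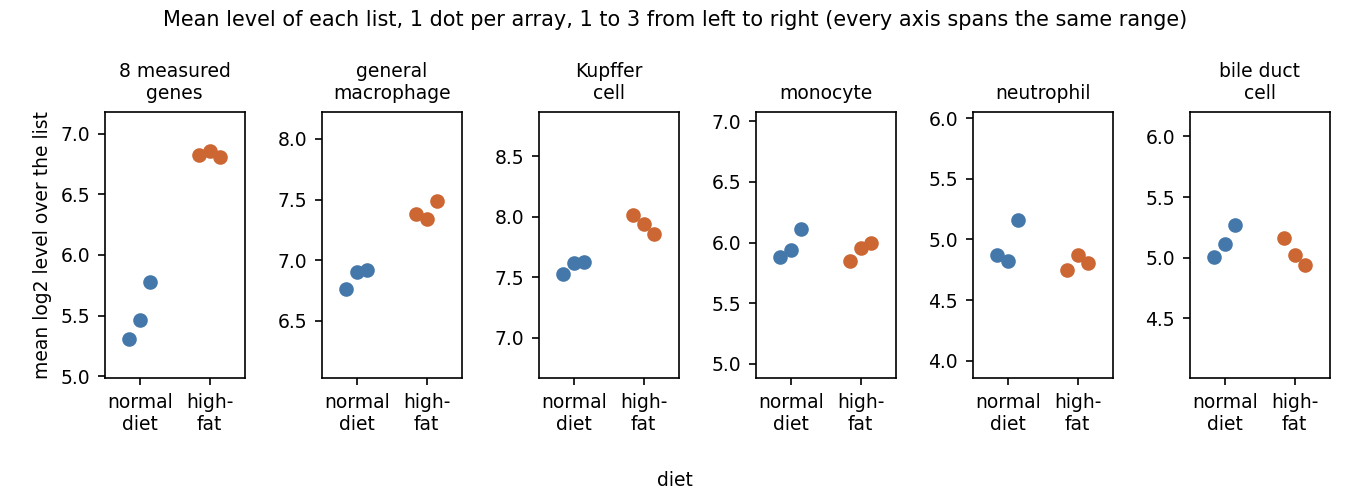
Mean log2 level over the tested genes of 6 lists in each array, with vertical axes of equal span. The members run from 5.30 to 5.77 under normal diet and from 6.81 to 6.86 under high-fat diet, general macrophage and Kupffer cell markers are also higher in every high-fat array, and the monocyte and bile duct lists overlap between the diets.

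The genes whose pattern over the 6 arrays came closest to the most changed members were found by the root mean square difference of levels centred on each gene's mean. For Clec7a they were Ubd, which encodes a ubiquitin-like modifier induced by inflammatory signals (0.32), Postn, the matrix protein gene periostin (0.32), and Srebf1, the lipogenic regulator gene (0.34). For Lgals3 they were Acot9, an acyl-CoA thioesterase gene (0.14), Anxa5 (0.21) and Sdcbp2 (0.22). For Mmp12 they were Ttc39a (0.18), Mbnl3 (0.18) and Tbc1d31 (0.24). All 9 were higher in every high-fat array than in any normal diet array, as Clec7a, Lgals3 and Mmp12 were. This held for 21.1% of all genes, and picking genes by likeness to these members favours it, so it is not a separate result. Acot9, the closest to Lgals3, read 3.86, 4.61 and 4.74 under normal diet and 6.59, 6.28 and 6.31 under high-fat diet. Like Lgals3 it was lowest in normal diet 1 and highest in high-fat 1, which the same way of picking favours. Anxa5 lost its call when high-fat 3 was left out.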

How the data were processed

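The deposited table gives each probe set's expression on the log2 scale. Per the submitters' processing notes the authors obtained them by RMA with Affymetrix Expression Console 1.0. RMA subtracts background, equalises the distributions of the arrays and summarises the probes, and it flattens differences near background. The deposited values were not fully equal between arrays: their medians were 4.00 to 4.05 under normal diet and 3.96 to 3.99 under high-fat diet. RNA was extracted with TRIzol and labelled with biotin, per the labels' protocols. Of the table's 45101 probe sets 64 are controls, which were left out, and 34945 carried 1 symbol. Names came from the platform annotation, and gene IDs were looked up in a table of the assembly GRCm38.p6, which changed 0 symbols.

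Where a gene had several probe sets, the one with the highest mean over all arrays stood for it, also with arrays left out. A gene was tested if it lay above the 40th percentile of the array in at least 3 of 6 arrays. The diets were compared with limma 3.58.1 (lmFit, eBayes) run in R 4.3.3. P-values were two-sided and were adjusted by Benjamini-Hochberg over the 14071 genes. Probe sets were also fitted one by one. The labels do not say more of the mice behind each pool, so p-values weigh the spread between arrays, whose number limits the precision. Folds are 2 to the power of the absolute log2 difference.

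Members, lists and tests were chosen with earlier results of these data known. Of 260 list genes 238 had a probe set. Genes to be named were all members, up to 4 genes of each list with the smallest p, 19 landmark genes and, for the 3 most changed members, the 3 genes nearest in pattern. Not every list gene picked by this rule is described in the text. Abca1, Mmp2, Mmp9, Mmp14, Mmp19, Clec2d, Clec4d, Clec1a, Slc40a1, Cd163, Laptm5, Fcgr1 and Mertk lie outside this rule and were named after their values were seen. The alternatives changed the level filter or set a floor, the variance model, the array weights, the scaling, the choice of probe set or the threshold (0.01), added a replicate block, or left out an array. The counts of the lists under these alternatives were added after seeing the data. The genome build of the probe annotation is not given in the sources used here. Python 3.11.15 (pandas 2.3.3, matplotlib 3.10.9) made the tables and figures.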

Additional observations from a re-analysis of the deposited data

How the results depend on the processing

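Between 4 and 7 of the 8 measured genes were called higher with 1 array left out (4 to 7 of their 9 tested probe sets), and 5 to 7 under the other settings at the same threshold. At an adjusted p below 0.01, 4 were called, Gpnmb and Itgax being lost, and 172 genes in all. Clec7a, Lgals3, Mmp12 and Cd68 were called under every setting run. The Trem2 difference was 0.17 with the most variable probe set (adjusted p = 0.524), the opposite direction, because that choice took the other probe set. Over all genes 169 to 1245 were called with 1 array left out: 272, 217 and 169 without high-fat 1, 2 and 3. Calls that were higher made up 77.2% of the total, 66.4% after quantile normalization, 69.8% after cyclic loess and 82.9% after median centring.

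With the replicate number as a block 6 members, 6 of their probe sets and 768 genes were called, and the call of no member changed. Deviations of same-numbered arrays from their diet mean correlated over genes at -0.01, 0.04 and 0.10. The last, for arrays numbered 3, was the highest of any pair, while normal diet 1 correlated best with high-fat 2 (0.08). With means of only 3 arrays these values cannot decide whether the numbers pair the arrays.

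Of 37 further genes that the rule named and limma called, 9 to 36 remained called with 1 array left out: 16 with high-fat 1 left out, 9 with high-fat 2 or 3, 29 with normal diet 1 or 2 and 36 with normal diet 3. The sign of none of the 37 changed under any setting run. Signal close to background limits Mmp12 under normal diet, Itgax and the second Gpnmb probe set.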

Other observations

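The genes next to the 10 members on their chromosomes, 3 protein-coding genes on each side in the order of the assembly GRCm38.p6, were set beside them. Of 60 such neighbours 40 were tested, of which 5 rose, 1 fell and 34 were not called, with a median difference of -0.09. Over all genes tested 5.87% rose and 1.73% fell, and no test of position was run. Vwf, which encodes the von Willebrand factor of endothelial cells and platelets and lies next to Cd9, read 4.81, 4.75 and 4.80 in the normal diet arrays and 5.74, 5.59 and 5.84 in the high-fat arrays. It rose 1.91-fold (0.93 ± 0.10, limma adjusted p = 0.00508). Pycard, which encodes the inflammasome adaptor ASC and lies 3 genes from Itgax, rose 1.56-fold (0.64 ± 0.13, limma adjusted p = 0.0285). Oard1 near Trem2, Clec1b near Clec7a and Mpdu1 beside Cd68 rose 1.51-fold, 1.64-fold and 1.49-fold, and Tra2a near Gpnmb fell by 0.82. The neighbours of Mmp12 that encode metalloproteinases, Mmp13, Mmp1b, Mmp3 and Mmp1a, all lay below the level filter. Vwf was called whichever array was left out. Pycard lost its call with normal diet 1 or 2 or any high-fat array left out, Clec1b with any high-fat array left out and Mpdu1 with each array except normal diet 2, while Oard1 and Tra2a lost it with each of the 6. These genes were named by position and call, after their values were seen.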
